A study of Mus musculus with 4 samples.

Results

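Most genes of the mouse brain give rise to several transcripts, and the share that each transcript takes of its gene's RNA was compared here between an inbred laboratory strain and an inbred wild-derived strain. For every gene, the FPKM values (sequenced fragments corrected for how long the transcript is and how deep the library) of its annotated transcripts were summed, and each transcript was expressed as a percentage of that sum, called its share. A gene entered if it had 2 or more transcripts of at least 200 bases and a summed FPKM of 5 or more in both parental libraries. Of 51905 genes in the tables, 18880 had 2 or more such transcripts and 7222 entered, with 49333 transcripts (median 6 per gene, at most 62). Of the genes that entered, 7124 were protein coding.

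The study sequenced total RNA from the brains of wild-type mice in 4 groups, and each group gave 1 library made from 5 mice pooled. The groups were C57BL/6 (B6), CAST/EiJ (CAST), the cross written C57BL/6 x CAST/EiJ (F1i) and the reciprocal cross written CAST/EiJ x C57BL/6 (F1r). The labels speak of left hemispheres in the extraction protocol and the design text of whole brain. The labels give neither age nor sex. With 1 library per group there is no replicate check, so no difference below was tested and none carries an error. Both hybrids carry the same autosomal genotypes. The F1r against F1i difference over the same genes is therefore given beside each count, as a measure of how far a pair of pooled libraries can differ. Both hybrids hold both genomes, so this measure leaves out any effect of placing CAST reads on the reference of another strain. Whether a CAST genome was used is not given, and its part in the counts was not tested.

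Alternative promoters, alternative splicing and alternative ends of the transcript let 1 gene make several RNAs, and neurons use them widely. A cassette exon is an internal exon that is either kept or skipped, and very short ones, called microexons, are typical of neuronal genes. A retained intron is one left in the RNA, and such transcripts often stay in the nucleus or are degraded. Transcripts marked for nonsense-mediated decay carry an early stop codon that can send them to degradation.

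Short coding exons can be printed in full, as a single stretch of sequence that is present or absent. Their inclusion was computed from the FPKM of whole transcripts, which can also differ elsewhere. The hybrids were further apart than the parents in Anxa6, Src and Chchd3, and less far apart in the other printed exons. The 14 exons below are the coding cassette exons of at most 60 bases, with a length divisible by 3, whose inclusion was 25 percentage points or more apart between CAST and B6. They lie in genes that share under 5% of their sequence with other genes. Each is printed 5′ to 3′ on the strand of the gene, with the exon in capitals and 15 bases of the neighbouring exon on each side in lower case. The sequences are the reference sequences of GENCODE M21 transcripts (GRCm38), not reads of these mice.
Anxa6: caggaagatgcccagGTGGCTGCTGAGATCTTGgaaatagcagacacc
Src: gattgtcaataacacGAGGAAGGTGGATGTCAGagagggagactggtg
Sptan1: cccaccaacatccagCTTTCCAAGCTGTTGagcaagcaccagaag
Chchd3: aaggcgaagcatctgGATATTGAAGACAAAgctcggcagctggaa
Gfra1: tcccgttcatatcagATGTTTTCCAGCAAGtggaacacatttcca
Gk: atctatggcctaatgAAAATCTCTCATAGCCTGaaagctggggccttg
Tpd52l2: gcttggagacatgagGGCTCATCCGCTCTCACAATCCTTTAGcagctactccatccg
Kcnip1: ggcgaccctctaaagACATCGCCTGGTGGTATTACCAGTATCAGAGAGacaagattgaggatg
Ndrg4: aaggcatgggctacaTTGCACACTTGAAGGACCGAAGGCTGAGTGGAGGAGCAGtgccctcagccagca
Magi2: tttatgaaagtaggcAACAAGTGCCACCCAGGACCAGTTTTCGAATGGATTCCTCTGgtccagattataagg
Sema6d: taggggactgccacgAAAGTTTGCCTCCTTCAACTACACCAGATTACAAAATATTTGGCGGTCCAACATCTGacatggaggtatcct
Eif4h: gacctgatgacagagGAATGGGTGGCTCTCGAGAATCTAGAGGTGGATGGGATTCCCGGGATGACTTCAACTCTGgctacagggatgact
Arfgap1: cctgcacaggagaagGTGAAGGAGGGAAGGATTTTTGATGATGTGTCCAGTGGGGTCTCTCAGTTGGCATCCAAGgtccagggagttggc
Ssbp4: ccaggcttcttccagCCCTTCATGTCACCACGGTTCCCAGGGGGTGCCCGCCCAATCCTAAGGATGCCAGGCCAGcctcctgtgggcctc

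The libraries had the RNA of brain. Snap25, a neuronal membrane fusion protein, had a summed FPKM of 577 in B6 and 499 in CAST, with 592 in F1i and 635 in F1r, and the liver gene Alb was at most 0.272. Some genes of other tissues were not even across the libraries: the secretoglobin gene Scgb1c1 had 11.1 FPKM in B6 and 21.9 in CAST, with 0.828 in F1i and 2.34 in F1r. Acta1, the actin of skeletal muscle, had 5.17 in B6 and 1.90 to 2.26 in the other libraries. Genes of myelin and oligodendrocytes were lower in CAST than in B6 in 19 of 19 cases, beside 3162 of all 7222 genes, and their levels added up to 2908 FPKM in B6 and 1873 in CAST, with 2453 in F1i and 2268 in F1r. Microglial and immune genes were lower in CAST in 7 of 9 cases, with sums of 189 FPKM in B6 and 146 in CAST. Astrocyte genes were lower in CAST in 12 of 17 cases and higher in 5, with sums of 3819 FPKM in B6 and 3364 in CAST. The neuronal genes Syt1, Rbfox3 and Tubb3 were, like Snap25, lower in CAST than in B6. In bulk RNA, fewer cells of a type and less RNA per cell cannot be told apart, and the part of these differences in the shares below was not tested. Sequencing depth relative to B6, read from the FPKM value that 1 fragment gives, was 0.714 in CAST, with 0.804 and 0.722 in the hybrids F1i and F1r. At 5 FPKM a transcript of 2000 bases then rested on about 420 fragments in B6 (419.7) and 300 in CAST (299.6).

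Transcript usage was alike in most genes and differed widely in a minority. The largest share difference of any transcript had a median of 6.31 percentage points per gene between CAST and B6 and of 4.55 points between F1r and F1i. It reached 25 points in 348 of the 7222 genes between the parents (4.82%), of which 337 were protein coding, and in 88 genes between the hybrids (1.22%). In 191 genes (2.64%) the transcript with the highest share was also a different one in CAST than in B6, against 43 genes (0.595%) between the hybrids. The ratio of the counts was 3.95 at 25 points, 5.0 at 40 points (90 genes against 18) and 9.5 at 60 points (19 against 2). Genes were chosen by these same share differences and by their summed FPKM in B6 and CAST, so the values describe these libraries.

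**Figure D1:**
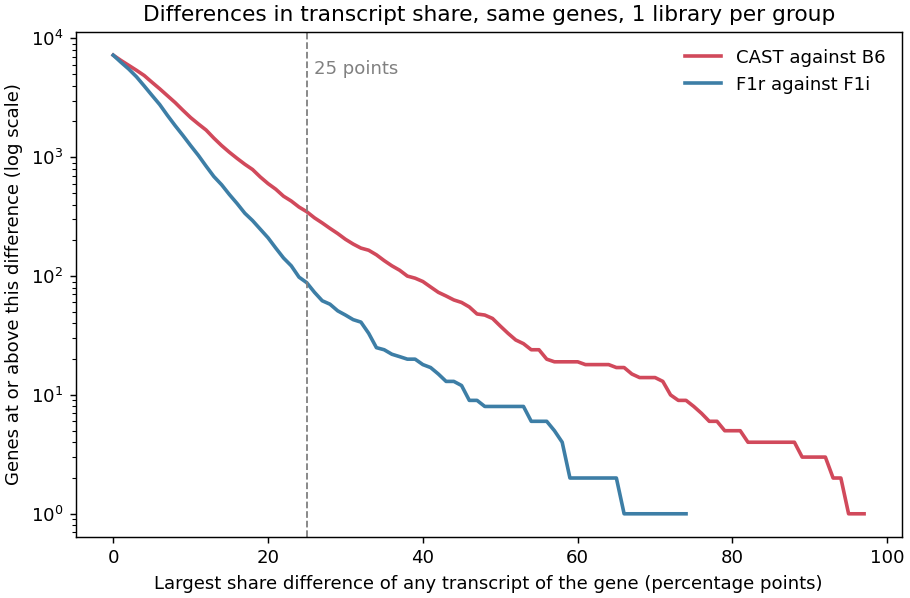
Number of genes (log scale) whose largest transcript share difference is at or above the value on the x axis, in percentage points, for CAST against B6 and F1r against F1i over the same 7222 genes, 1 library per group. At 25 points (dashed line) the curves stand at 348 and 88 genes.

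Counted by transcript, 254 shares were 25 points or more higher in CAST (0.515% of 49333) and 280 were lower (0.568%). Of the 348 genes, 40 were also at least 2-fold apart in summed FPKM, a larger part than the 134 of all 7222. The rest of the 348 differed less in level. Just inside the size rule, Fbxo34-205 had a share of 59.0% in B6 and 84% in CAST, and just outside it a transcript of Commd8 had 37.0% and 12%. At the FPKM filter, Tmtc4 entered with 5.00 in B6 and 6.31 in CAST, and Slc6a13 stayed out with 6.00 and 4.997. Among the autosomes and the X chromosome, the share of genes past 25 points ran from 3.02% on chromosome 9 to 7.44% on chromosome 7. With 1 FPKM added to every transcript the count was 121 genes in place of 348, and among genes with a summed FPKM of 20 or more it was 82 of 2619.

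The largest differences among protein-coding genes with little shared sequence ran from 55.1 to 88.5 points. In all 12 genes with the largest differences the leading transcript was a different one in CAST than in B6. Their summed FPKM ran from 5.34 to 30.1 in B6 and from 5.04 to 25.5 in CAST, so most were genes of low or moderate level. With 1 FPKM added to each transcript the 12 differences were 15.2 to 58.5 points, with 42.2 for Tcn2-201 and 34.6 for Zscan21-204. They were under 25 points in 3 of the 12, at 15.2 in Mthfsd-204, 24.6 in Uimc1-201 and 20.7 in Cryz-201, where CAST was the lower. In 9 of the 12, both hybrids had shares between those of the parents, and the exceptions were Anxa6, Cryz and Rif1.

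Tcn2 encodes transcobalamin 2, the protein that carries vitamin B12 to cells. Its transcript Tcn2-201 (chr11:3917192-3931995, minus strand) had a share of 0.00131% in B6 and 88.5% in CAST, with 16.5% in F1i and 10.8% in F1r. The transcripts Tcn2-203 and Tcn2-207 made up most of the gene in B6, at 60.4% and 35.4%, and stood at 11.5% and 0% in CAST. Tcn2-201 and Tcn2-203 have the same coding sequence, so the exchange between these transcripts lay outside it. The coding sequence of Tcn2-207 was not compared. Tcn2-203 and Tcn2-201 differ in few bases, with 71 words of 31 bases found only in Tcn2-203 and 19 only in Tcn2-201.

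Zscan21 and Zfp27 encode zinc finger proteins that bind DNA. Zscan21-204 (chr5:138116937-138134265, plus strand) had a share of 0.00233% in B6 and 81.2% in CAST, with 31.3% in F1i and 43.2% in F1r. It differs from Zscan21-205, which had 69.4% in B6 and 2.95% in CAST, by a cassette exon outside the coding sequence. Zfp27-201 (chr7:29893716-29906104, minus strand) had 55.1% in B6 and 0.00547% in CAST, with 45.8% in F1i and 39.7% in F1r. In CAST, Zfp27-205 led with 63.1% (43.9% in B6), and Zfp27-204, which begins at another start site, had 34.4% there, 0.986% in B6 and 0% in both hybrids.

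Mfap3 encodes a protein named for its association with microfibrils. Mfap3-203 (chr11:57518664-57533815, plus strand) had 78.6% in B6 and 0% in CAST, with 37.6% in F1i and 34.5% in F1r, and Mfap3-201 had 11.9%, 89.9%, 53.2% and 59.98%. Both have the same coding sequence. The hybrids lay near the middle between the parents.

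Abhd14a encodes an enzyme of the alpha/beta hydrolase family. Abhd14a-201 (chr9:106440051-106447678, minus strand) had 19.9% in B6 and 90.1% in CAST, with 47.5% in F1i and 38.8% in F1r. Msantd4 showed a change of start site with the same coding sequence. Msantd4-202 (chr9:4376562-4386870, plus strand) had 98.3% in B6 and 42.5% in CAST, with 78.0% in F1i and 83.8% in F1r, and Msantd4-201 had 0.00134%, 55.7%, 20.5% and 14.4%.

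Nkain2 encodes a membrane protein that binds a subunit of the sodium pump. Its coding transcript Nkain2-203 (chr10:31689310-32890461, minus strand) had 86.8% in B6 and 20.8% in CAST, with 82.8% in F1i and 75% in F1r. In CAST the leading transcript was Nkain2-206, a processed transcript with no coding sequence in the annotation and another 3′ end, at 61.3% against 4.48% in B6. Both hybrids had the pattern of B6 here, with 5.27% and 3.43% of Nkain2-206.

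Mthfsd encodes a protein named for its likeness to an enzyme of folate metabolism. A transcript marked for nonsense-mediated decay, Mthfsd-204 (chr8:121097555-121108295, minus strand), had 3.66% in B6 and 59.0% in CAST, with 21.5% in F1i and 19.5% in F1r. The summed FPKM of the gene was 14.5 in B6 and 5.76 in CAST.

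Rif1 and Uimc1 act in the response to DNA breaks. Rif1-201 (chr2:52072837-52122381, plus strand) had 0.113% in B6 and 60.3% in CAST, with 51.5% in F1i and 65.7% in F1r. The transcript that led in B6, with 58.5%, has no entry in GENCODE M21 and is not named here. Uimc1-201 (chr13:55027880-55100295, minus strand) had 0.127% in B6 and 56.3% in CAST, with 27.3% in F1i and 0.267% in F1r, so F1r stood with B6. It differs in few bases from Uimc1-204, its counterpart in B6, with 36 words of 31 bases found only in Uimc1-204 and 31 only in Uimc1-201.

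Cryz encodes a quinone oxidoreductase. Cryz-201 (chr3:154596711-154623182, plus strand) had 75.7% in B6 and 19.8% in CAST, with 18.6% in F1i and 20.9% in F1r, so B6 stood alone. Cryz-201 differs from Cryz-208, its counterpart in CAST, in only 2 words of 31 bases, and both have the same coding sequence. Its reads therefore hold little to tell the transcripts apart, and the same was true of Map6 below.

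**Figure D2:**
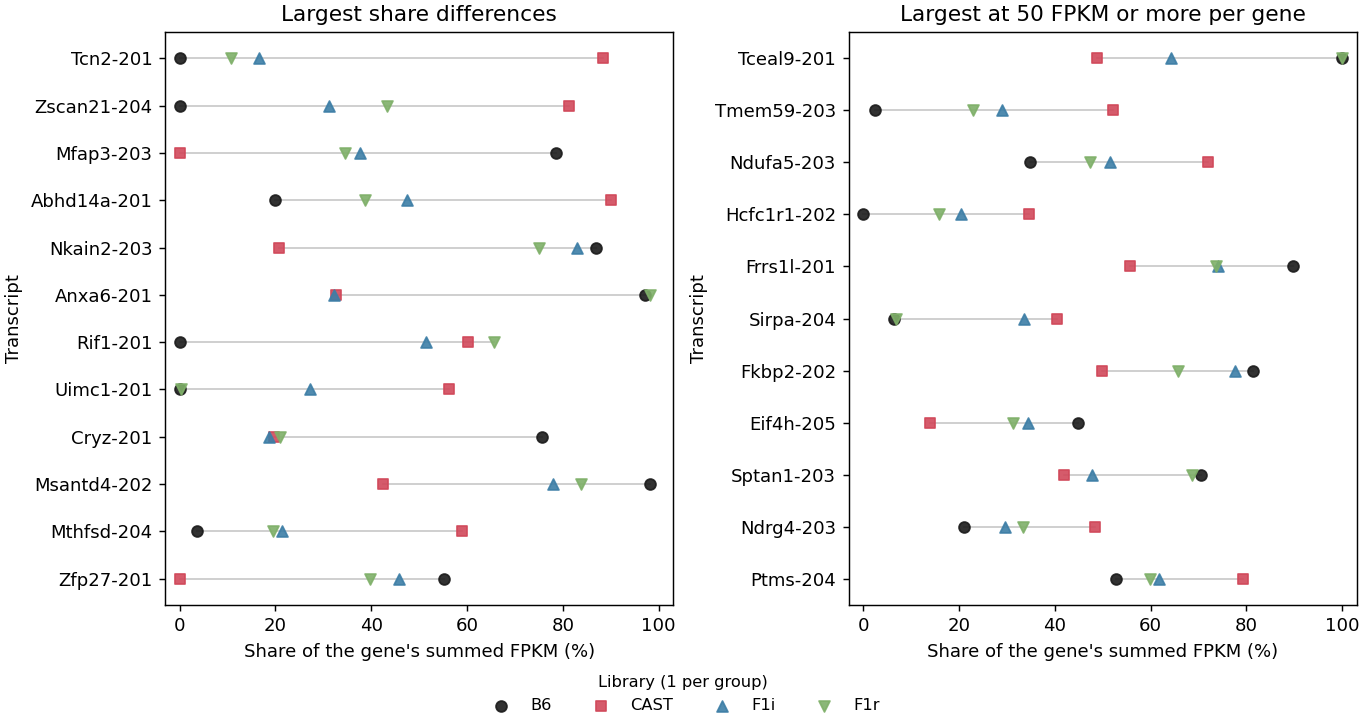
Share (%) of the gene's summed FPKM taken by the transcript with the largest difference, in each of the 4 libraries, for the 12 protein-coding genes with the largest differences (left) and 11 of the 12 with the largest among genes at 50 FPKM or more in B6 and CAST (right). Points are single libraries, so there are no error bars; for Anxa6-201, CAST and F1i stand near 32% and B6 and F1r near 98%.

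Among strongly expressed genes the 12 largest differences ran from 26.5 to 51.1 points. Of 860 genes with a summed FPKM of 50 or more in both parents, 33 were past 25 points. The leading transcript differed in 6 of the 12 largest, and in 8 the exchanged pair began over 100 bases apart, a share near the 63.8% of all 7059 genes with a matched pair. In 11 of the 12 both hybrids lay between the parents, the exception being Tceal9.

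Several of these exchanged a coding transcript for one with no coding sequence or an early stop. Frrs1l encodes a protein that helps assemble AMPA-type glutamate receptors. Frrs1l-201, the coding transcript (chr4:56957173-56990391, minus strand), had 89.7% in B6 and 55.8% in CAST, with 74.1% in F1i and 73.7% in F1r. Frrs1l-202, marked for nonsense-mediated decay and lacking an 85-base exon, had the rest, 10.3% in B6 and 44.2% in CAST, while the summed FPKM was 59.1 and 59.0. As a level, Frrs1l-201 thus had 53.0 FPKM in B6 and 32.9 in CAST. With FPKM multiplied by transcript length the difference of Frrs1l-201 (CAST minus B6) was -23.4 points, under the size rule.

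Tmem59 encodes a membrane protein of the Golgi apparatus and lysosomes. The processed transcript Tmem59-203 (chr4:107179018-107200994, plus strand) had 2.57% in B6 and 52.1% in CAST, with 29.0% in F1i and 22.9% in F1r, and the coding Tmem59-201 had 91.9%, 42.9%, 59.0% and 67.8%. Ptms encodes parathymosin, a small acidic nuclear protein. Its processed transcript Ptms-204 had 52.9% in B6 and 79.3% in CAST, with 61.7% in F1i and 59.96% in F1r. In both genes CAST was the highest library.

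Ndufa5 encodes a subunit of respiratory complex I. Its retained-intron transcript Ndufa5-203 had 34.7% in B6 and 72% in CAST, with 51.5% in F1i and 47.4% in F1r, and the coding Ndufa5-202 had 30.6%, 0%, 21% and 20.7%. These transcripts have 433 and 315 bases, a length at which FPKM depends strongly on the length correction.

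Others exchanged transcripts of different starts and the same coding sequence. Sirpa, a receptor for the signal CD47, had Sirpa-204 (chr2:129592914-129632228, plus strand) at 6.49% in B6 and 40.4% in CAST, with 33.6% in F1i and 6.79% in F1r. In Sirpa the hybrids were apart by 26.9 points, F1i standing near CAST and F1r near B6.

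Tceal9, an X-linked gene named for its likeness to a transcription elongation factor, had Tceal9-201 (chrX:136245079-136247139, plus strand) at 100% in B6 and 48.9% in CAST, with 64.3% in F1i and 100% in F1r. Tceal9-202, which starts elsewhere and has the same coding sequence, had 51.1% in CAST and 35.7% in F1i. Summed FPKM differed little, at 57.3, 58.5, 56.8 and 56.4. Without a change of start, Fkbp2, a folding enzyme of the endoplasmic reticulum, had Fkbp2-202 at 81.5% in B6 and 49.9% in CAST, with 77.5% in F1i and 65.7% in F1r. Hcfc1r1, a regulator of the cell cycle factor HCF-1, had Hcfc1r1-202 at 0% in B6 and 34.7% in CAST, with 20.4% in F1i and 15.7% in F1r.

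Cassette exons gave 89 differences of 25 points or more. Inclusion was the FPKM of transcripts with the exon as a percentage of that of transcripts with and without it, where both parents had at least 5 FPKM covering the exon. This measure and the exons named were chosen after values were seen. Of 6846 exons in 3658 genes, 89 (1.3%) were past 25 points between the parents, with 41 higher (0.599%) and 48 lower (0.701%) in CAST, and 28 (0.409%) were past it between the hybrids. In 74 of the 89 exons, themselves chosen by the parental difference, both hybrids lay between the parents. Of the 58 coding exons among them, 62.1% had a length divisible by 3, beside 59.6% of all 4496 coding exons measured.

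Microexons of 27 bases or fewer had 10 of 359 past 25 points between the parents (2.79%) and 8 between the hybrids (2.23%). In 5 of them both contrasts were past it, and in 4 of these, printed above, the hybrid F1i was near CAST and F1r near B6. Anxa6 encodes annexin A6, a calcium-dependent membrane-binding protein. Its 18-base exon (chr11:54987051-54987068, minus strand) was included at 1.82% in B6 and 66.5% in CAST, with 67% in F1i and 0% in F1r. The exon alone separates Anxa6-201 from Anxa6-202.

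Src encodes a tyrosine kinase, and the 18-base exon shown (chr2:157458843-157458860, plus strand) is the microexon of its neuronal form. It was included at 57.1% in B6 and 15% in CAST, with 10.1% in F1i and 71.7% in F1r, with 20.6 to 21.96 FPKM covering it. Sptan1, the alpha spectrin of the neuronal membrane skeleton, had its 15-base exon (chr2:30014158-30014172, plus strand) at 97.9% in B6 and 56.3% in CAST, with 62.8% in F1i and 97.6% in F1r. Transcripts covering it had 112 to 117 FPKM. The 15-base exon of Chchd3 (chr6:32893392-32893406, minus strand), a protein of the inner mitochondrial membrane, was included at 0% in B6 and 37.6% in CAST, with 45.8% in F1i and 0% in F1r.

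Reciprocal hybrids were apart in Gfra1 as well, but with the values crossed. The 15-base exon of Gfra1 (chr19:58392573-58392587, minus strand), the receptor for the neurotrophic factor GDNF, was included at 43.1% in B6 and 100% in CAST, with 39.3% in F1i and 77.9% in F1r. Tpd52l2, a protein of the tumour protein D52 family, had a 27-base exon (chr2:181510504-181510530, plus strand) at 56.1% in B6 and 11.6% in CAST, with 55.5% in F1i and 33.2% in F1r. The 18-base exon of the X-linked glycerol kinase gene Gk (chrX:85739222-85739239, minus strand) was included at 81.8%, 36%, 69.3% and 80.4%. In these 3 exons F1i was nearer B6 than CAST.

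Longer printed exons mostly had the hybrids between the parents. Kcnip1 encodes a calcium-binding subunit of A-type potassium channels, and its 33-base exon (chr11:33651540-33651572, minus strand) was included at 56.6% in B6 and 97.7% in CAST, with 41.6% in F1i and 57.9% in F1r. Ndrg4, a gene of neurons, had its 39-base exon (chr8:95712325-95712363, plus strand) at 77.9% in B6 and 49.8% in CAST, with 69.3% in F1i and 64.9% in F1r, with over 400 FPKM (408 in CAST) covering it. Eif4h, a cofactor of translation initiation, had its 60-base exon (chr5:134624441-134624500, minus strand) at 45.8%, 14.3%, 34.8% and 32.2%. CAST was the highest or the lowest library in all 3.

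Magi2, a scaffold protein of synapses, had a 42-base exon (chr5:20543585-20543626, plus strand) at 44.3% in B6 and 17.8% in CAST, with 32.4% in F1i and 28.7% in F1r. Sema6d, a semaphorin that guides axons, had a 57-base exon (chr2:124660705-124660761, plus strand) at 58.3%, 30.8%, 43.4% and 54.5%. Arfgap1, which regulates vesicle traffic at the Golgi apparatus, had a 60-base exon (chr2:180979661-180979720, plus strand) at 69.6%, 98.8%, 82.9% and 82.8%. A 60-base exon of Ssbp4 (chr8:70599840-70599899, minus strand), a protein named for binding single-stranded DNA, was included at 67.3%, 100%, 86.0% and 88.1%. Among longer exons, which are not printed, Nrcam, a neuronal adhesion molecule, had a 153-base exon at 49.7% in B6 and 20.2% in CAST, with 37.0% in F1i and 36% in F1r. With 1 FPKM added to each side, 54 exons in place of 89 were past 25 points, and 18 of 2011 were past it among exons covered by 20 FPKM or more.

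**Figure D3:**
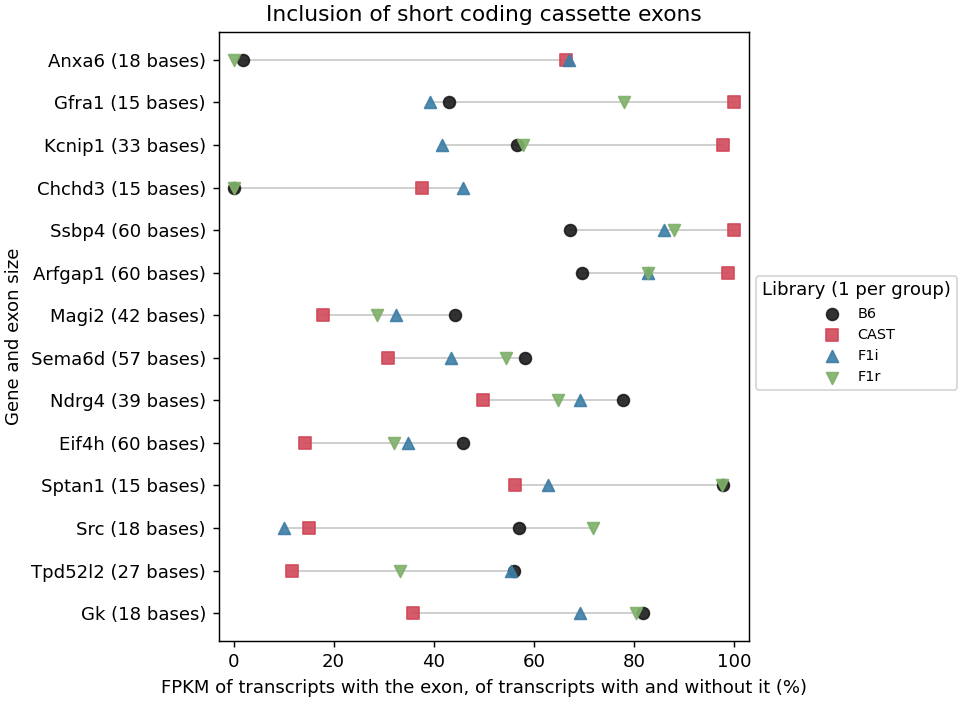
Inclusion (%) of the 14 printed exons in each of the 4 libraries, as the FPKM of transcripts with the exon over the FPKM of transcripts with and without it; points are single libraries. In Anxa6, Chchd3, Sptan1 and Src the F1i point lies beside CAST and the F1r point beside B6.

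Of 18 lists of genes, 9 had no member past 25 points, where 4.82% of all genes were past it. In lists of this size that share is itself only 1 or 2 genes. The 9 lists were splicing regulators (0 of 29), synaptic adhesion (0 of 35), glutamate receptors (0 of 19), GABA and glycine receptors (0 of 15), postsynaptic scaffold and kinases (0 of 42), myelin and oligodendrocyte (0 of 19), astrocyte (0 of 17), neurodegeneration-linked (0 of 27) and clock and immediate early genes (0 of 24). Their median largest differences ran from 2.42 points for astrocyte genes to 7.51 points for splicing regulators, beside 6.31 for all genes. Both channel and vesicle lists had shares near that of all genes, with 2 of 48 ion channel genes and 2 of 51 presynaptic genes past 25 points.

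**Figure D4:**
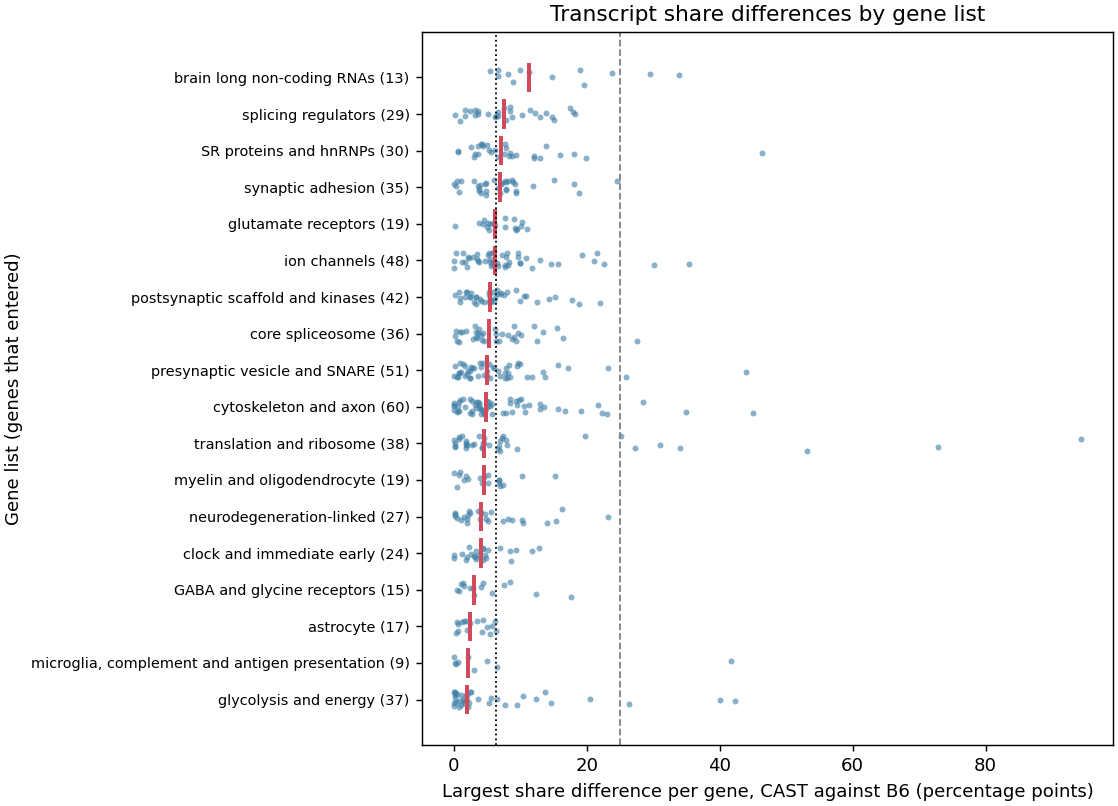
Largest transcript share difference per gene (percentage points, CAST against B6) for the genes of 18 lists; each point is a gene, the red bar is the list's median, the dotted line the median of all genes (6.31) and the dashed line 25 points. The 3 points farthest to the right are Rps2, Rps18 and Rps6, all in the translation list.

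Of 22 genes well known for their brain isoforms, 21 entered and 0 reached 25 points, beside 4.82% of all genes. Their median largest difference was 5.54 points, beside 6.31 for all genes, and 7 of the 21 were above that. Snap25-201 had 91.2% in B6 and 89.4% in CAST, with 90.0% in F1i and 91.6% in F1r. Pkm-201 and Pkm-202, from a gene of glycolysis, had 55.3% and 43.6% in B6 and 49.7% and 47.9% in CAST.

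Exons of Grin1, the shared subunit of NMDA receptors, were likewise close, with a 63-base exon at 18.5% in B6 and 22.1% in CAST, with 19.8% in F1i and 22.1% in F1r. Mbp, a main protein of myelin, had 4.52 points as its largest difference, although its summed FPKM was 1039 in B6 and 732 in CAST. The largest difference in this group was that of Bin1, which shapes membranes, where Bin1-201 had 66.3% in B6 and 83.5% in CAST, with 73.6% in F1i and 76.0% in F1r. Mapt, the microtubule-associated protein tau, had an 87-base exon (chr11:104289908-104289994, plus strand) at 32.2% in B6 and 9.50% in CAST, with 16.9% in F1i and 17.4% in F1r, just under the size rule. Transcripts covering this exon had only 16.2 FPKM in B6 and 19.0 in CAST, where the whole gene had 88.8 and 87.2. Its inclusion thus describes a small part of the RNA of Mapt.

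Members past 25 points in the neuronal lists were few. Ryr2, a calcium release channel, had Ryr2-202 at 14.4% in B6 and 44.5% in CAST, with 35% in F1i and 26.4% in F1r. Erc1, a scaffold of the presynaptic active zone, had Erc1-201 at 0.059%, 44.0%, 37.3% and 9.09%. Sv2b, a synaptic vesicle glycoprotein, had Sv2b-201 at 58.7%, 84.6%, 70.4% and 66.5%, with another start site and the same coding sequence. For Ryr2 and Erc1 the differences were 20.7 and 17.2 points with 1 FPKM added to each transcript.

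Cytoskeletal genes had 3 of 60 past 25 points, near the 4.82% of all genes, Sptan1 among them. Tpm3, a tropomyosin of actin filaments, had the retained-intron transcript Tpm3-212 at 0% in B6 and 45.1% in CAST, with 20.7% in F1i and 22% in F1r. The difference was 26.4 points with FPKM multiplied by length, and 26.99% of the 31-base words of Tpm3 occur in other genes, so the value is uncertain. Map6, which stabilises microtubules, had Map6-205 at 39.4%, 4.41%, 71.2% and 37.7%, but Map6-205 and Map6-201 differ in 1 word of 31 bases. Cx3cr1, the fractalkine receptor of microglia, had Cx3cr1-201 at 59.7% in B6 and 17.9% in CAST, with 41.7% in F1i and 38.5% in F1r, and the exchange was of the 3′ end. It was the 1 of 9 members of the microglial list past 25 points.

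Among genes of RNA processing, Hnrnpll and Snrpd3 were past 25 points. Hnrnpll, a splicing regulator known from lymphocytes, had Hnrnpll-205 at 46.4% in B6 and 0.0064% in CAST, with 14.1% in F1i and 34.4% in F1r. Snrpd3, a core protein of the spliceosome, had Snrpd3-201 at 66.6%, 39.0%, 54.0% and 63.0%. For Snrpd3 the difference was 12.2 points lower in CAST when FPKM was multiplied by length. Of the brain long non-coding RNAs, 2 of 13 were past 25 points, beside 4.82% of all genes, and neither was with 1 FPKM added (23.4 points for Pantr1-209 and -16.5 for Pvt1-209). Pantr1-209 had 13.9% in B6 and 47.7% in CAST, with 22.4% in F1i and 17.2% in F1r, and Pvt1-209 had 48.6%, 19.1%, 17.4% and 35.1%.

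The translation list had the highest count, 7 of 38, and 6 of these were ribosomal protein genes that share sequence with many copies in the genome. Rps2 had a summed FPKM of 220.1 in B6 and 9.28 in CAST, with 116 in F1i and 114 in F1r, and Rps2-208 had a share of 94.4%, 0%, 91.3% and 92.2%. Rps18-201 had 97.3% in B6 and 24.5% in CAST, with 96.8% in F1i and 93.6% in F1r. Of their 31-base words, 48.8% in Rps2 and 22.4% in Rps18 occur in other genes, and reads of such copies may be split between genes, so these values are uncertain. Rps6-201 had 93.9%, 40.7%, 78.7% and 87.2%, with 45.0% shared words. The same limit holds for Gapdh, Eno1 and Gpi1, the glycolytic genes past 25 points (3 of 37), with 27.2%, 28.5% and 13.9%, and all 3 were under 25 points with FPKM multiplied by length. Over all genes, 243 of the 6031 with under 5% shared words were past 25 points, or 4.03%.

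Retained-intron transcripts took a larger part of their genes in CAST. Of 4603 protein-coding genes with such a transcript, the mean share was 10.1% in B6 and 12.8% in CAST, with 10.1% in F1i and 11.3% in F1r. The share was 10 points or more higher in CAST than in B6 in 394 genes (8.56%) and lower in 70 (1.52%), where 10 points was a size chosen after values were seen. Between the hybrids it was higher in F1r in 139 genes (3.02%) and lower in 63 (1.37%). CAST and F1r, which had the higher mean shares, were also the libraries of lowest depth, and the part of depth or RNA quality in this was not tested. At 50 FPKM or more the mean was 5.59% in B6 and 7.03% in CAST, with 5.82% in F1i and 6.28% in F1r. Counts depended on the measure, with 205 higher and 31 lower when FPKM was multiplied by length and 135 and 29 with 1 FPKM added. Retained-intron transcripts had a median of 835 bases, against 1944 for coding ones.

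**Figure D5:**
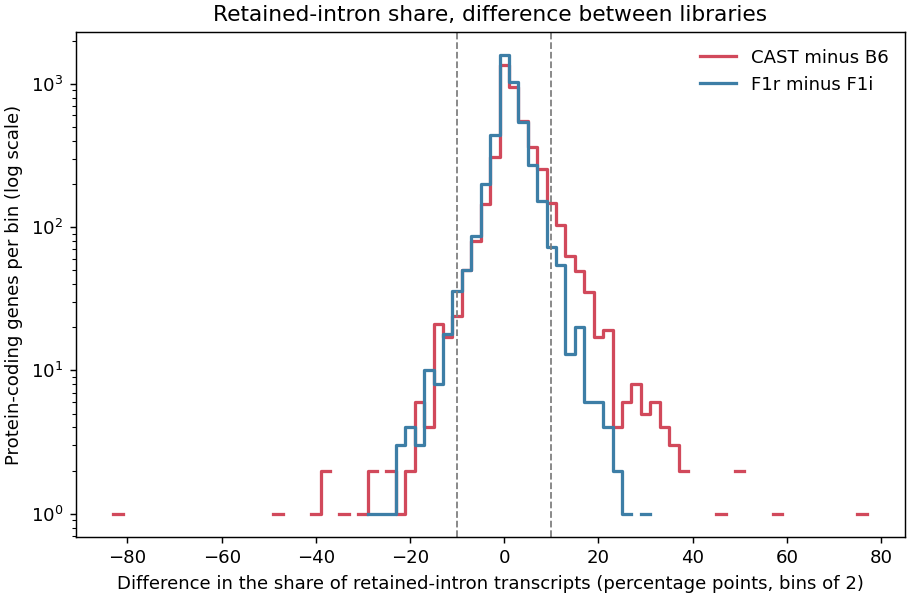
Difference in the share of retained-intron transcripts (percentage points, bins of 2) over 4603 protein-coding genes, counted per bin on a log scale, for CAST minus B6 and F1r minus F1i; dashed lines mark 10 points. The CAST minus B6 curve lies higher on the right side, with 394 genes at or beyond 10 points, against 70 on the left.

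Among SR proteins and hnRNPs, the families that bind exons and introns to steer splicing, 6 of 20 were 10 points higher in CAST and 0 lower, with a median of 4.19 points, beside 8.56% of all genes higher and a median of 1.52. Srsf5 had 21.1% in B6 and 35.3% in CAST, with 22.6% in F1i and 31.5% in F1r, and Tra2b had 9.07%, 20.1%, 14.7% and 19.3%. Of their 31-base words, 14.1% in Srsf5 and 10.1% in Tra2b occur in other genes, so these values are uncertain. Hnrnpa2b1, an abundant hnRNP, had 32.5%, 43.6%, 30.8% and 33.0%. The other members were Hnrnph3, Hnrnpll and Srsf11.

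Splicing regulators had 4 of 21 higher and 0 lower, with a median of 4.02 points. Rbm39, an RNA-binding protein of splicing, had 27.7% in B6 and 39.5% in CAST, with 32.1% in F1i and 35.2% in F1r. Tial1 and Rbm5 were also among them. The core spliceosome list had 3 of 31 higher, namely Clk4, Snrpb2 and Prpf3, and 0 lower, a count near the background of 8.56%. Clk4, a kinase of SR proteins, had 51.3%, 65%, 60.1% and 58.5%. Of the neuronal lists, presynaptic genes had 2 of 31 higher and cytoskeletal genes 3 of 40. Synaptic adhesion (22 genes), glutamate receptors (8), ion channels (24), postsynaptic proteins (27) and myelin (12) had 0 past 10 points either way, and in lists of this size a share of 8.56% is itself only a few genes.

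Single genes had much larger values. Pdxdc1, a gene related to pyridoxal-dependent decarboxylases, had retained-intron transcripts at 21.5% in B6 and 79.3% in CAST, with 50.3% in F1i and 52.2% in F1r. Capns1, the small subunit of calpain proteases, had 51.5%, 85.2%, 60.1% and 60.6%. Ebp, a gene of cholesterol synthesis on the X chromosome, had 4.44%, 38.8%, 31.7% and 15.2%. In these genes CAST was the highest library.

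Genes with the opposite direction included Polr2b, a large subunit of RNA polymerase II, at 67.2% in B6 and 19.5% in CAST, with 51.4% in F1i and 48.8% in F1r. Its summed FPKM was 46.0 in B6 and 18.3 in CAST. Tbcb, a cofactor of tubulin folding, had 38.8%, 0%, 18.4% and 24.6%, and Ngrn, named neugrin, had 62.0%, 22.9%, 39.9% and 39.2%. Both hybrids lay between the parents in all 3.

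By annotated type, coding transcripts made up 87.1% of the average protein-coding gene's FPKM in B6 and 85.1% in CAST, beside 87.2% in F1i and 86.5% in F1r. Transcripts marked for nonsense-mediated decay differed little, at 2.31%, 2.30%, 2.24% and 2.19%. Over all protein-coding genes that entered, retained-intron transcripts had 6.55%, 8.25%, 6.52% and 7.31%.

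In genes past 25 points, the pairs of transcripts that exchanged shares were more alike than over all genes. Past that size the pair must include a transcript with a large share, and the part of this choice was not tested. For each gene the transcript that was lowest in CAST relative to B6 was set beside the one that was highest. Both were coding in 57.6% of the 347 genes past 25 points that could be matched, beside 44.6% of all 7059, and they had the same coding sequence in 19.3% beside 9.41%. The 5′ starts were over 100 bases apart in 51.6% beside 63.8%, and the 3′ ends in 50.1% beside 74.5%. A cassette exon separated them in 19.3% beside 16.2%. Sequence that could tell the pair apart was shorter, with a median of 687 words of 31 bases in one of the pair only, beside 1831, and pairs differing in 100 words or fewer made up 8.07% beside 1.91%.

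The hybrid libraries, which the rule did not use, mostly stood between the parents. The genes were chosen because the parents lay far apart, and this choice alone favours a position between them. The same holds for the exons and named genes above. The matching count over all genes was not made. For the transcript with the largest difference in each of the 348 genes, both hybrids had shares between those of B6 and CAST in 263 genes. Placed between B6 at 0 and CAST at 1, F1i had a median position of 0.396 and F1r of 0.397. Both hybrids were nearer B6 in 174 genes and both nearer CAST in 59. Over the 7096 genes that reached 5 FPKM in all 4 libraries, CAST was the library that most often stood alone. It had a transcript share 25 points or more outside the other 3 libraries in 72 genes, against 19 for B6, 10 for F1i and 4 for F1r. The part of the reference genome in this count, and in how often the hybrids were nearer B6, was not tested.

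In 36 genes the hybrids were also 25 points or more apart, which is 10.3% of the 348 and 40.9% of the 88 genes past it between the hybrids. X-linked genes made up 5 of the 36, beside 10 of the 348, 9 of the 88 and 252 of the 7222 genes that entered (3.49%). In all 5, Tceal9, Zfp275, Apoo, Armcx1 and Pdzd11, F1i was nearer CAST and F1r nearer B6. Over the 10 X-linked genes past 25 points between the parents this held in 6, with both hybrids nearer B6 in 2 and both nearer CAST in 2. In Apoo, 43.3% of the 31-base words occur in other genes, so its value is uncertain. Armcx1, a protein of the outer mitochondrial membrane, had Armcx1-205 at 41.9% in B6 and 1.83% in CAST, with 1.07% in F1i and 59.7% in F1r. Pdzd11, a small scaffold protein, had Pdzd11-202 at 51.5%, 22.6%, 23.5% and 50.7%. Of the 31 autosomal genes, 13 had F1i nearer CAST and F1r nearer B6 and 10 the reverse.

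The hybrids thus stood on opposite sides of the middle between the parents in most of these autosomal genes. They were chosen because the parents and the hybrids each lay far apart, and this choice alone favours opposite sides. In each example below, a hybrid share lay outside those of both parents. Slc25a51, a mitochondrial carrier, had Slc25a51-202 at 37.5% in B6 and 0.374% in CAST, with 52.5% in F1i and 0.206% in F1r. Gpr153, a receptor with no known ligand, had Gpr153-201 at 37.5%, 69.3%, 12.2% and 65.4%. In Pcgf5, a Polycomb group protein, Pcgf5-201 had 14.7%, 48.3%, 56.7% and 0.00404% in the same order of libraries.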

How the data were processed

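The authors deposited 1 table per library with FPKM per transcript, gene, locus and length, and no counts or confidence intervals. Reads were handled with HISAT2, Cuffdiff, Cufflinks 2.2.1, Trimmomatic 0.36 and bcl2fastq 2.20, and mm9 is named as build, per the submitters' processing notes. The deposited coordinates match GRCm38: 99.6% of 128603 transcripts were found in GENCODE M21, and 97.2% of these had the same position. Whether strand was counted, reads with several matches kept or a CAST genome used is not given in the sources used here. Transcript types, exons and sequences came from GENCODE M21.

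Genes were counted at a share difference of 25 points, with no test, as each group had 1 library. Shared sequence is the percentage of a gene's 31-base words found in transcripts of other genes. Named genes were the 12 protein-coding genes with the largest difference, the 12 largest at 50 FPKM or more (both under 5% shared words, passing over Gm, Rik and accession names), up to 4 members per list past 25 points, 22 genes with well-known brain isoforms and those at each threshold. Genes, lists and members were chosen with earlier results of these data known, and the genes named for retained introns and hybrids after their values were seen. Alternatives changed the size rule, FPKM filter, length minimum, length weighting, pseudocount (1 FPKM), scaling and transcript set. The software was Python 3.11.15, with pandas 2.3.3, numpy 2.4.6 and matplotlib 3.10.9, and the steps were tested on simulated data. Results on a few genes are not reported here, though these genes are part of the counts.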

Additional observations from a re-analysis of the deposited data

How the results depend on the processing

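No paired analysis was possible because each group had 1 library. The counts are given for share differences of 25 points or more between the parents, for these with another leading transcript, and between the hybrids (348, 191 and 88 as reported). They were 1102, 365 and 486 at 15 points and 90, 73 and 18 at 40 points. At a total share difference of 25 points the count was 606 between the parents and 210 between the hybrids. With an FPKM filter of 1 they were 889, 457 and 477, with a filter of 20 they were 82, 47 and 13, and with any value above 0 they were 2966, 1860 and 2418. With 1 FPKM added they were 121, 77 and 20. Merging transcripts of the same coding sequence gave 57 between the hybrids. The other settings stayed within 1.5 times: no length minimum, 500 bases, FPKM times length, rescaled libraries, coding transcripts only, under 5% shared words, the 99th percentile of the hybrid difference and, added after seeing the data, leaving out pairs differing in 100 words or fewer. The alternatives for retained introns and cassette exons were also chosen after seeing the data. Retained-intron counts (394 higher and 70 lower) were 205 and 31 with FPKM times length, 135 and 29 with 1 FPKM added and 88 and 15 with a filter of 20. Cassette exons past 25 points (89) were 54 with 1 FPKM added and 18 with 20 FPKM covering the exon. Share differences of 42 named transcripts past 25 points gave 125 recomputed values, of which 0 turned in direction and 45 moved by more than 5.78 points, the SD of the hybrid differences over genes. Of the 42, 12 were under 25 points with 1 FPKM added and 6 with FPKM times length. Of the 62 values for named transcripts under 25 points, 1 moved by more than that and 0 turned. For 2 transcripts under 500 bases the alternative could not be computed. The medians of the lists stayed within that distance in all 57 recomputations. Depth limits low transcripts most, and with no replicate the tables give no spread.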

Other observations

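In 5 of 7096 genes that reached 5 FPKM in all 4 libraries, both hybrids had a transcript share at least 25 points outside both parents. Uchl1, a deubiquitinating enzyme abundant in neurons, had the retained-intron transcript Uchl1-202 at 7.07% in B6 and 18.4% in CAST, with 86.3% in F1i and 86.1% in F1r. The coding Uchl1-201 had 90.3%, 74.9%, 9.83% and 10.6%, which as levels are 286, 158, 25.99 and 27.8 FPKM. The summed FPKM of Uchl1 was 317 in B6 and 211 in CAST, with 264 in F1i and 263 in F1r, so the parents and the hybrids differed in the transcripts and less in the sum. Fen1, a nuclease of DNA replication, had Fen1-204 at 0.06% in B6 and 0.0442% in CAST, with 59.4% in F1i and 58.6% in F1r. Klf15, a transcription factor of metabolism, had Klf15-204 at 4.33%, 0.0237%, 39.1% and 39.1%, and the poly(A) polymerase gene Papd5 had its transcript Tent4b-202 at 0.202%, 3.29%, 47.7% and 46.1%. In Bag1, a cofactor of heat shock proteins, Bag1-201 had 16.0%, 22.9%, 48.0% and 81.4%. These genes were named after their values were seen, and the difference between parents and hybrids was not tested.

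Nsmf, a protein that carries signals from NMDA receptors to the nucleus, had small differences between the parents and large ones between the hybrids. Its 6-base exon at chr2:25057965-25057970 (plus strand) was included at 13.1% in B6 and 18.5% in CAST, with 5.36% in F1i and 88.0% in F1r.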
